A study of Drosophila melanogaster with 14 samples.

Results

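Cytochrome P450 enzymes are haem proteins that insert an oxygen atom into lipids, hormones, plant compounds and insecticides. Most microsomal P450s take electrons from a single NADPH reductase, Cpr in flies, and mitochondrial P450s take them through adrenodoxin reductase and ferredoxins. In insects the Cyp6, Cyp9 and Cyp28 families are known mostly for work on foreign compounds, the Cyp12 family sits in mitochondria, and the Cyp4 family includes enzymes that act on fatty acids and cuticular hydrocarbons. The genes were chosen by name, as those whose FlyBase symbol is Cyp followed by a number, without Cyp4d21 and without the cyclophilins Cyp1 and Cyp40, which share the prefix but are not P450s. This left 81 P450 genes of 15490 genes listed in any of the 3 expression tables, and 79 of them were in all 3. Cyp12d1-d had no value in the Shal495 table, Cyp6a18 had one in the APP table alone, and Cyp4d2, Cyp4d14 and Cyp9c1 were not analysed here. The 81 genes comprised 19 of the Cyp4 family, 25 of Cyp6, 5 of Cyp9, 7 of Cyp12 and 25 of 16 other families. Every listed gene carried the P450 domain annotation given in the deposited tables.

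Poly(A) RNA of Drosophila melanogaster was sequenced in 14 libraries, 2 for each of 7 genotypes, and each library came from about 50 adults labelled male and aged 5 to 7 days. The APP table held driver-only flies, the elav-Gal4 driver control, with the pan-neuronal driver (Elav-Gal4;+;+), transgene-only flies, the UAS-APP control (w;UAS-APP;+), and flies with both (Elav-Gal4;UAS-APP;+), in which the driver should express amyloid precursor protein in neurons. The Shal495 table held w1118 flies and flies of the potassium channel mutant w;+;Shal495, of which replicate 2 is labelled w;+;Shal496. The TrpA1 table held flies with w;+;UAS-TrpA1 and flies with Elav-Gal4;+;UAS-TrpA1, in which the driver should express a heat-activated cation channel in neurons. No driver-only group accompanied TrpA1, all flies were kept at room temperature per the labels, and the labels name dissected brains where the series description names heads. The series asked which pathways change downstream of these genotypes and of the hyperexcitability they are meant to cause.

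Levels are the deposited FPKM values, which divide the fragments of a gene by its length and by library depth. Totals of 17162942 to 19911318 fragments per library meant that 3 counts on a gene of 1 kb equalled 0.151 to 0.175 FPKM, a floor that covers counting error only. Several libraries went against their labels. Summed FPKM of 14 gut genes, digestive enzymes such as trypsins and amylases, was 67739 to 68617 in driver-only flies, 29290 to 32305 in transgene-only flies and 1022 to 1031 in elav-Gal4 UAS-APP. Summed FPKM of 7 neuronal genes ran the other way, at 54.0 to 54.4, 169 to 225 and 847 to 858. Yolk protein Yp2, a female fat body product, stood at 145 and 150 FPKM in driver-only flies, 312.7 and 351 in Shal495 and 393 and 404 in the UAS-TrpA1 control, and at 1.05 or less in each library of the other 4 groups. Shal stood at 18.3 and 20.0 FPKM in Shal495 against 27.65 and 27.1 in w1118, and TrpA1 at 2.76 and 2.62 FPKM in elav-Gal4 UAS-TrpA1 against 1.48 and 1.48 in its control. The gene w, named in the label w;+;Shal495, stood at 21.1 and 23.3 FPKM in Shal495 against 0.122 and 0.0465 in w1118. Shal495 and w1118 thus differed at w as well as in Shal. The APP transgene was not analysed here. In whole tissue, fewer cells of a type and less RNA per cell cannot be told apart. No label says whether both libraries of a group (n = 2 throughout) were made from separate pools, and p-values therefore describe spread between libraries, which may be technical. That spread was uneven: over P450 genes the chi-square per gene between replicates was 1.3 to 2.14 in 4 groups and 19.2 to 22.3 in transgene-only flies, w1118 and Shal495, where sampling noise alone gives about 1.

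A few enzymes made up most of the P450 RNA. Cyp313a1, of unknown substrate, had the highest mean over the 7 groups at 414 FPKM, and its group means ran from 231 in the UAS-TrpA1 control to 597 in transgene-only flies. Cyp6d5 followed at 279 FPKM, Cyp6g1, whose overexpression gives resistance to DDT and imidacloprid, at 264, Cyp9f2 at 206, and Cyp28d1, linked to nicotine resistance, at 200 (199.8) FPKM. Cyp9b2, Cyp12a4, Cyp28a5, Cyp4e2 and Cyp6a2 completed the 10 highest, with means of 64.0 to 136 FPKM. The 10 highest genes of each library held, as group means, 60.6% to 75.4% of the summed P450 FPKM. At the other end, 10 genes stayed under 1 FPKM in every library, among them Cyp310a1, Cyp4ad1 and Cyp12d1-d, while 48 reached 1 FPKM in every library that listed them and 21 reached 10. Levels set side by side across tables come from separate deposits and carry no test.

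The steadiest of the abundant genes was Cyp4e2, with group means of 59.3 to 81.2 FPKM. The widest ranges lay elsewhere. Cyp4p2 ran from 0.0438 FPKM in driver-only flies, a mean of 3 and 0 fragments, to 41.2 FPKM in Shal495. Cyp6a17, which is known for a role in temperature preference, ran from 1.49 FPKM in Shal495 to 84.8 in driver-only flies. Cyp309a1 ran from 2.69 FPKM in w1118 to 87.6 in elav-Gal4 UAS-TrpA1. Cyp4g1, the enzyme that makes cuticular hydrocarbons in oenocytes of the abdomen, stayed between 0.0441 and 4.75 FPKM, highest in w1118. Its relative Cyp4g15, known from the nervous system, reached 9.18 to 83.3 FPKM.

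**Figure D1:**
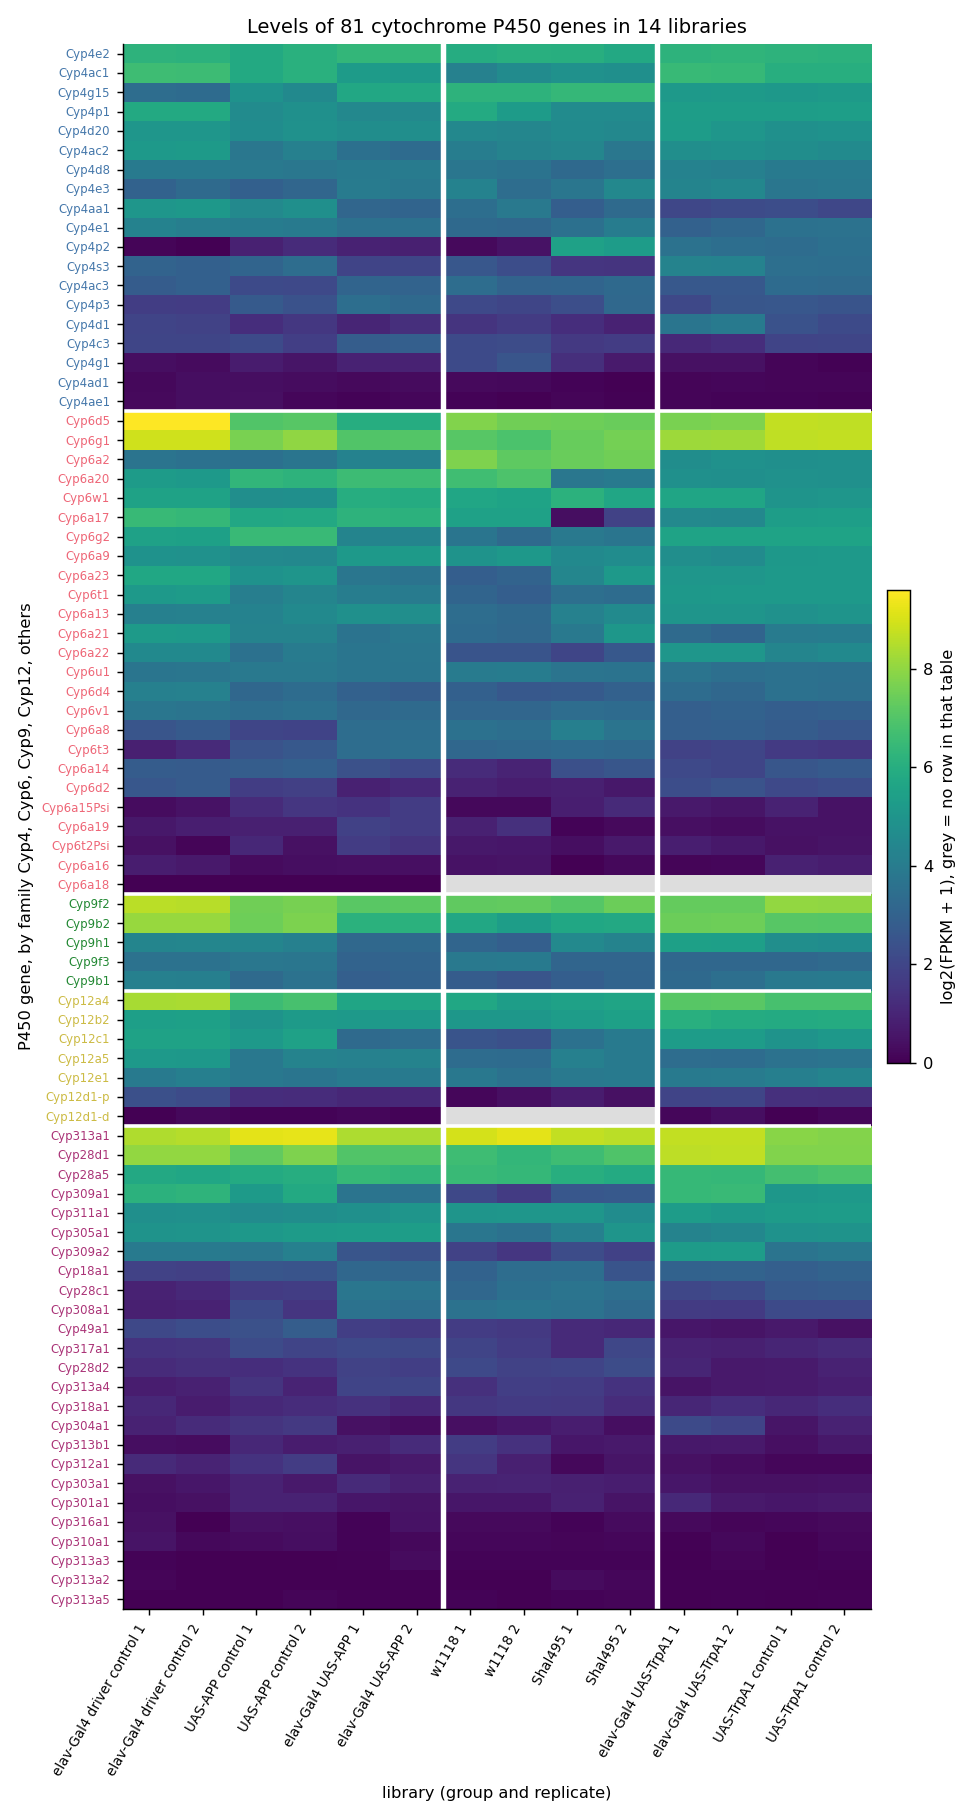
Level of each of 81 P450 genes (y axis, label colour by family) in each of 14 libraries (x axis), as log2(FPKM + 1), with white lines between tables and families and grey where a table has no row. Cyp313a1, Cyp6d5 and Cyp6g1 are bright in every table, Cyp4p2 is bright in Shal495, and Cyp6a17 is dark there.

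Summed over the family, driver-only flies had the most P450 RNA. Its 2 libraries summed to 4114 and 4148 FPKM, transgene-only flies to 2561 and 2861, and elav-Gal4 UAS-APP to 1984 and 1960. As a share of all FPKM in the library this was 0.615% and 0.623%, 0.426% and 0.456%, and 0.451% and 0.443%, so elav-Gal4 UAS-APP was lowest in summed FPKM and overlapped transgene-only flies in share. The Cyp6 family accounted for much of the gap, with a mean sum of 1725 ± 8.12 FPKM (SD, n = 2) in driver-only flies, 792 ± 58.0 in transgene-only flies and 627 ± 3.05 in elav-Gal4 UAS-APP. Cyp9 sums were 709 ± 0.122, 425 ± 35.7 and 235 ± 2.86 FPKM, and Cyp12 sums were 467 ± 6.58, 206 ± 23.1 and 126 ± 0.390 FPKM. In the other tables totals lay closer together, at 2347 and 2265 FPKM in w1118 and 2127 and 2216 in Shal495, and in the TrpA1 table at 3050 and 3070 with driver and transgene against 2919 and 2943 without driver. No test was made of these sums.

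**Figure D2:**
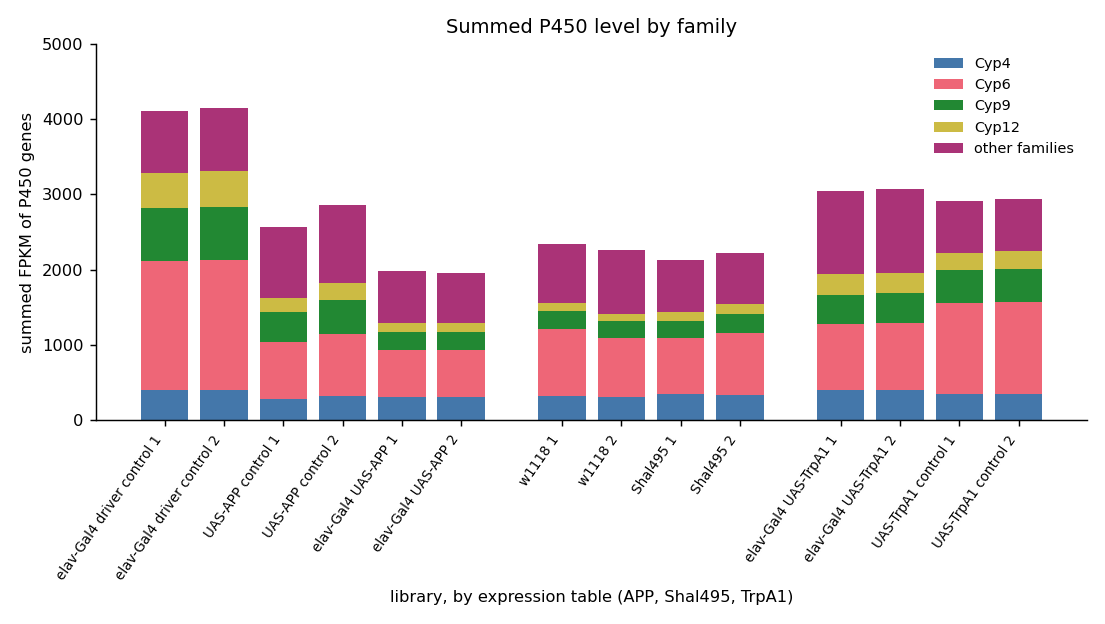
Summed FPKM of P450 genes in each library (bars, y axis from 0), split by family, with the libraries on the x axis in the order of the 3 tables. Driver-only libraries reach 4114 and 4148, and the Cyp6 segment is the part that shrinks most in transgene-only flies and elav-Gal4 UAS-APP.

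In the APP table, the most abundant P450s of the Cyp6, Cyp9 and Cyp12 families were lowest in flies with driver and transgene. Other genes were highest there, both weak ones such as Cyp28c1 and abundant ones such as Cyp4g15, Cyp6a20 and Cyp28a5. Genes were tested with limma on log2(FPKM + 1), with p-values adjusted by Benjamini-Hochberg over all genes tested and a threshold of 0.05. Of 81 P450 genes, 67 reached 1 FPKM in at least 2 libraries and were tested, and the 14 left out included Cyp4g1, Cyp4p2, Cyp301a1, Cyp303a1, Cyp310a1 and Cyp12d1-d. Against driver-only flies 23 P450 genes rose, where 56.5% of all genes tested rose, and 36 fell, where 27.5% of all genes fell. Against transgene-only flies 23 rose (46.1% of all genes) and 29 fell (30.7% of all genes). The median gene of the table differed by a log2 value of 0.43 and 0.17 in these comparisons, so log2 changes below are given less that median, while calls were made on the deposited values. After that subtraction the median P450 change was -0.74 against driver-only flies and -0.22 against transgene-only flies, where the median of all genes is 0. Scaling moved the split: median centring gave 13 raised and 44 lowered, and 16 raised and 34 lowered, while quantile normalization gave 16 and 39, and then 19 and 30. Of the calls made on deposited values, 35 of the 36 lowered and 11 of the 23 raised against driver-only flies held under both scalings, as did 26 of the 29 lowered and 15 of the 23 raised against transgene-only flies. Cyp6a9 was called raised against driver-only flies on deposited values and lowered with median centring.

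Both comparisons use the same elav-Gal4 UAS-APP libraries, so the 6 libraries are best read in one order. Both elav-Gal4 UAS-APP libraries lay below all 4 control libraries for 31 of the 67 P450 genes, where this held for 27.1% of all genes. They lay above all 4 for 23, where this held for 49% of all genes. For Cyp6a17 alone they lay between the controls, where this held for 7.59% of all genes. The remaining genes overlapped at least 1 control group or split.

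All 5 Cyp9 genes fell against both controls, where 27.5% of all genes fell against driver-only flies and 30.7% against transgene-only flies. The call of Cyp9f2 against transgene-only flies was, however, lost with quantile normalization (adjusted p = 0.131). Cyp9f2 measured 383 and 383 FPKM in driver-only flies, 181 and 199 in transgene-only flies and 142 and 144 in elav-Gal4 UAS-APP. Cyp9b2 measured 277 and 278, 176 and 210, and 69.0 and 69.6 FPKM. The 3 groups of libraries did not overlap for either gene. The log2 change of Cyp9b2 was -2.41 ± 0.085 (SE) against driver-only flies (adjusted p = 5.96e-07) and -1.63 ± 0.085 against transgene-only flies (adjusted p = 5.64e-06). The other Cyp9 genes, Cyp9b1, Cyp9f3 and Cyp9h1, were weaker, at 6.503 to 8.74 FPKM in elav-Gal4 UAS-APP and 8.98 to 20.3 in the controls.

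In the mitochondrial Cyp12 family 5 of 6 tested genes fell against driver-only flies, where 27.5% of all genes fell. Against transgene-only flies 2 of 6 fell (33.3%), near the 30.7% of all genes. No member rose, where 56.5% and 46.1% of all genes rose. Cyp12a4, known for lufenuron resistance when overexpressed, measured 323 and 329 FPKM in driver-only flies, 95.5 and 110 (109.9) in transgene-only flies and 48.4 and 47.5 in elav-Gal4 UAS-APP. Its log2 change was -3.17 ± 0.075 against driver-only flies (adjusted p = 1.09e-07) and -1.25 ± 0.075 against transgene-only flies (adjusted p = 1.25e-05). Its tandem neighbour Cyp12a5 measured 34.6 and 33.3, 13.4 and 18.4, and 17.8 and 18.6 FPKM, and so overlapped transgene-only flies. Cyp12c1 stood at 45.6 and 45.4 FPKM in driver-only flies, 35.9 and 43.5 in transgene-only flies and 8.86 and 9.90 with driver and transgene. Cyp12d1-p, an insecticide-inducible gene with a near-identical copy in Cyp12d1-d, stood at 1.12 and 1.13 FPKM against 4.06 and 3.59 in driver-only flies and 1.41 and 1.32 in transgene-only flies, and the latter difference passed with median centring (adjusted p = 0.00818). Counts of such copies may be split between them and are uncertain.

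The Cyp6 family moved in both directions. Against driver-only flies 10 of 23 tested genes rose (43.5%) and 12 fell (52.2%), beside 56.5% and 27.5% of all genes. Against transgene-only flies 10 rose (43.5%) and 9 fell (39.1%), nearer to the 46.1% and 30.7% of all genes. Cyp6d5 showed the largest fall against driver-only flies, at 62.2 and 60.3 FPKM against 767 and 774, a log2 change of -4.06 ± 0.065 (adjusted p = 2.00e-08). In transgene-only flies it stood at 125 and 137 FPKM, and the change against that control was -1.25 ± 0.065 (adjusted p = 6.61e-06). Most of its distance from driver-only flies was thus already present between the 2 controls. Cyp6g1 measured 475 and 482, 203 and 257, and 125 and 129 FPKM in driver control, UAS-APP control and elav-Gal4 UAS-APP. Its tandem neighbour Cyp6g2 measured 43.5 and 43.0, 89.0 and 89.9, and 19.4 and 19.3 FPKM, the largest fall against transgene-only flies (log2 change -2.32 ± 0.055, adjusted p = 1.91e-07). The third gene of that group, Cyp6t3, which acts in ecdysone synthesis in larvae, went the other way at 0.797 and 1.20, 4.56 and 5.23, and 9.79 and 10.3 FPKM.

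Other Cyp6 genes were highest with driver and transgene. Cyp6a20, which affects male aggression, stood at 95.9 and 94.6 FPKM against 37.5 and 35.6 in driver-only flies and 79.3 and 72.5 in transgene-only flies. Its rise against driver-only flies was a log2 change of 0.93 ± 0.066 (adjusted p = 1.06e-06), whereas the change of 0.16 ± 0.066 against transgene-only flies did not pass with median centring (adjusted p = 0.325). Cyp6w1 stood at 62.4 and 59.5 FPKM against 25.6 and 26.2 in transgene-only flies, a log2 change of 1.04 ± 0.059 (adjusted p = 2.95e-06). Against driver-only flies at 44.7 and 45.6 FPKM its change equalled that of the median gene, and the call was lost with median centring (adjusted p = 0.0766). Cyp6a8, induced by barbiturates and caffeine, stood at 9.70 and 10.1 FPKM against 4.84 and 5.54 in driver-only flies and 3.04 and 2.84 in transgene-only flies, and its rise against driver-only flies was lost with quantile normalization (adjusted p = 0.0573). Cyp6a2, linked to DDT resistance, stood at 18.1 and 17.6, 11.9 and 11.1, and 10.5 and 12.4 FPKM in the same order, and its rise against driver-only flies was lost with median centring (adjusted p = 0.776).

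The Cyp4 family also split. Cyp4g15 rose against both controls, from 9.65 and 9.18 FPKM in driver-only flies and 28.6 and 22.7 in transgene-only flies to 53.6 and 55.1. Its log2 change was 1.98 ± 0.105 against driver-only flies (adjusted p = 6.46e-07) and 0.89 ± 0.105 against transgene-only flies (adjusted p = 6.71e-05). This order of the 3 groups is that of the neuronal sum given above and of the glial, photoreceptor and Malpighian tubule sums given below. Both elav-Gal4 UAS-APP libraries were also highest for 49% of all genes. The part of any of these lists in the result was not tested. Cyp4p3 was highest with driver and transgene as well, at 10.1 and 8.76 FPKM against 2.34 and 2.23 and 5.55 and 4.39. Its tandem neighbour Cyp4p1 was lowest there, at 21.1 and 21.97 FPKM against 56.4 and 56.0 in driver-only flies and 23.8 and 27.3 in transgene-only flies. The fall of Cyp4p1 against transgene-only flies was small (log2 change -0.40 ± 0.078) and was lost without either driver control library (adjusted p = 0.0619) and without either elav-Gal4 UAS-APP library (adjusted p = 0.0774 and 0.143). Cyp4ac1 and Cyp4ac2 fell against both controls, Cyp4ac2 from 35.2 and 36.3 and from 13.1 and 17.2 to 10.7 and 9.20 FPKM. Their neighbour Cyp4ac3 rose against transgene-only flies, from 3.50 and 3.32 to 7.46 and 7.38 FPKM. Cyp4aa1 was at 7.94 and 7.53 FPKM against 31.8 and 33.3 and 21.8 and 26.6, and Cyp4d1 at 0.983 and 1.44 FPKM against 2.89 and 2.76 and 1.41 and 1.96, where the comparison with transgene-only flies did not pass (adjusted p = 0.126) but did with median centring (adjusted p = 0.0176), with quantile normalization (adjusted p = 0.0277) and without UAS-APP replicate 1 (adjusted p = 0.0414).

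Among the remaining families, Cyp28c1 and Cyp308a1 showed the largest rises against both controls. Cyp28c1 measured 12.7 and 11.9 FPKM against 0.905 and 1.16 in driver-only flies and 2.21 and 2.39 in transgene-only flies. Cyp308a1 measured 11.3 and 10.3 FPKM against 0.813 and 0.892 and 3.46 and 1.78. Cyp18a1, which inactivates the moulting hormone 20-hydroxyecdysone, stood at 8.23 and 8.07 FPKM against 2.71 and 2.54 and 4.86 and 4.62. None of these genes overlapped a control library. Cyp309a1 was lower, at 11.97 and 11.2 FPKM against 70.4 and 75.4 in driver-only flies and 36.1 and 55.9 in transgene-only flies, and its neighbour Cyp309a2 at 4.84 and 4.18 FPKM against 14.3 and 14.2 and 12.9 and 17.2. Cyp313a1 overlapped neither control and stood at 344 and 331 FPKM, against 353 and 366 in driver-only flies, where the difference did not pass (adjusted p = 0.203), and 592 and 601 in transgene-only flies, where the fall was lost with quantile normalization (adjusted p = 0.545). The direction of Cyp313a1 against driver-only flies turned with the scaling: it was called lowered with median centring (adjusted p = 8.65e-05) and raised with quantile normalization (log2 change 0.74, adjusted p = 1.98e-05). As deposited it passed as lowered without UAS-APP replicate 1 or 2 (adjusted p = 0.0344 and 0.0339) and in a fit of the 2 groups alone (adjusted p = 0.0331). Cyp28a5 stood at 85.1 and 79.5 FPKM against 54.3 and 50.3 and 57.2 and 62.5, and Cyp305a1 at 38.9 and 39.3 FPKM against 29.7 and 30.0 and 33.7 and 37.1. Cyp28d1, at 128 and 125 FPKM against 263 and 263 and 154 and 213, fell against both, and the second call was lost with quantile normalization (adjusted p = 0.0839) and without elav-Gal4 UAS-APP replicate 2 (adjusted p = 0.0555). The calls of Cyp28a5 and Cyp305a1 against driver-only flies were lost with median centring (adjusted p = 0.387 and 0.0566), as was that of Cyp28a5 against transgene-only flies (adjusted p = 0.0614).

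Cyp301a1 and Cyp303a1, which act in cuticle and bristle formation, stayed at 0.294 to 0.896 and 0.335 to 1.19 FPKM in the APP table. Fragments of Cyp303a1 may come from heix on the other strand, which covers 33.0% of its exons, since no strand marking is stated. The same holds for Cyp6d2, with 51.0% of its exons under nsr.

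**Figure D3:**
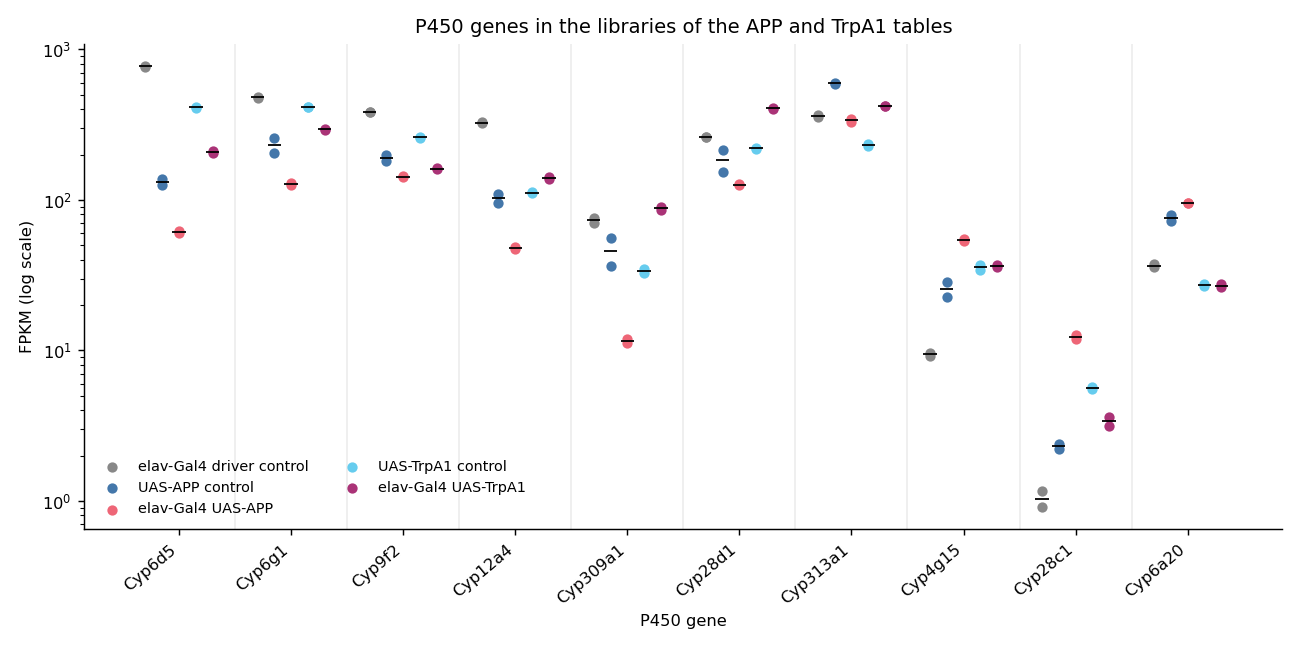
FPKM (log axis) of 10 P450 genes, chosen after their values were seen, in the 5 groups of the APP and TrpA1 tables; points are libraries and bars are means of 2. Cyp6d5 falls from 767 and 774 in driver-only flies to 62.2 and 60.3 in elav-Gal4 UAS-APP, while Cyp4g15 goes from 9.65 and 9.18 to 53.6 and 55.1.

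The 2 controls of the APP table differed from each other as well. Of 67 tested P450 genes, 31 were called higher in driver-only flies than in transgene-only flies (16.2% of all genes). Another 15 were called lower (50.2% of all genes). Median centring gave 38 and 11, and quantile normalization 39 and 10. Cyp6d5 had the largest difference, a log2 value of 2.82 ± 0.065 above the median gene (adjusted p = 6.55e-07), followed by Cyp12a4 at 1.93 ± 0.075 (adjusted p = 6.69e-06). Cyp4ac2, Cyp4p1, Cyp6g1 and Cyp12a5 were also higher in driver-only flies, with log2 differences of 1.33 to 1.47. Cyp4g15, Cyp6a20, Cyp6g2 and Cyp313a1 were lower there, with log2 differences of -1.08 to -0.46. The calls of Cyp28d1, higher in driver-only flies, and of Cyp4d1 were lost without replicate 1 of that control (adjusted p = 0.0578 and 0.0896) and without replicate 2 (adjusted p = 0.0566 and 0.0689). The call of Cyp4d1 was also lost without UAS-APP replicate 1 (adjusted p = 0.0759). The call of Cyp4e2 was lost without either driver control library (adjusted p = 0.156 and 0.127) and without either elav-Gal4 UAS-APP library (adjusted p = 0.0752 and 0.0751), which enter the shared estimate of spread.

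Gut genes were higher in driver-only flies by the sums given above, with 13 of 14 raised against transgene-only flies and all 14 lowered in elav-Gal4 UAS-APP against each control. Fat body genes summed to 2310 to 2324 FPKM in driver-only flies, 2642 to 2907 in transgene-only flies and 742 to 745 in elav-Gal4 UAS-APP. Genes of glia summed to 701 to 707, 800 (799.7) to 825, and 1250 (1250.0) to 1258 FPKM, and genes of photoreceptors to 2381 to 2421, 17311 to 20868 and 24407 to 24415 FPKM. Oenocyte genes summed to 1.27 to 1.28, 5.06 to 5.12 and 3.19 to 3.50 FPKM. Most of each oenocyte sum came from FarO, the only gene of that list tested, and the others stayed under 1 FPKM. Genes of Malpighian tubules, an excretory tissue rich in P450s, summed to 8.07 to 9.52, 11.6 to 13.1 and 32.0 to 32.2 FPKM. That list did not move as one: Oatp58Dc and Irk3 carried the sum, Oatp58Da went from 5.98 and 5.17 FPKM in driver-only flies to 0.0247 and 0.0246 with driver and transgene, and the other 4 genes, Uro among them, stayed under 1 FPKM. The sexes' markers moved in opposite directions. Yp1, Yp2 and Yp3, products of females, were higher in driver-only flies than in both other groups of the table, with Yp1 at 28.2 and 29.4 FPKM against 0.127 and 0.0352 in transgene-only flies and 0.0664 and 0.165 with driver and transgene. The male dosage compensation RNA roX1 was lower there, at 69.7 and 70.8 FPKM against 262 and 224 and 219.9 and 216, and roX2 likewise at 7.40 and 6.88 FPKM against 50.4 and 47.4 and 20.5 and 21.3. No gene of these lists was at 0 in every library of the table. The part of these tissues in the P450 values was not tested, and tissue content and genotype cannot be told apart in this table.

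Of 14 partner and regulator genes, 7 rose and 6 fell against driver-only flies, beside 56.5% and 27.5% of all genes. Against transgene-only flies 5 rose and 5 fell, beside 46.1% and 30.7% of all genes. Those that fell in both were the reductase Cpr, at 85.2 and 85.2 FPKM against 124 and 126 and 110 (109.7) and 132, the electron donor Cyt-b5, at 199 and 201 FPKM against 504 and 505 and 448 and 514, the ferredoxins Fdx1 and Fdx2, and the small Maf protein maf-S. Fdx2 measured 23.9 and 23.45 FPKM against 67.7 and 70.6 and 37.5 and 44.9. The adrenodoxin reductase dare, at 6.68 and 7.52 FPKM against 7.57 and 8.5025 and 5.84 and 6.15, did not pass in either comparison (adjusted p = 0.165 and 0.0816). Against driver-only flies dare was called lowered with median centring and with quantile normalization. The falls of the 5 genes held with median centring and quantile normalization. The genes that rose in both were the juvenile hormone receptors Met and gce, the dioxin receptor homologue ss with its partner tgo, and Keap1, which restrains the stress regulator cnc. With either scaling 4 rose and 9 fell against driver-only flies, and 5 rose and 7 fell against transgene-only flies. Against driver-only flies, calls of raised turned to lowered with both scalings for Hr96, a nuclear receptor of foreign compounds, with median centring for the nuclear receptor Hnf4, and with quantile normalization for Keap1. Of the ecdysteroid synthesis genes, which are outside the numbered Cyp symbols or not P450s, 3 of 9 were tested. GstE14 (also known as nobo, a glutathione transferase) stood at 23.5 and 24.2 FPKM against 7.42 and 8.43 in driver-only flies and 20.4 and 14.5 in transgene-only flies, and its rise against the latter was lost with either scaling. The P450 genes phtm and sad reached at most 3.23 and 1.83 FPKM in the table, spok at most 0.182 and sro at most 0.394, and spo had no fragment in 5 of the 6 libraries.

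Shal495 differed from w1118 in few P450 genes, and some of these differences were very large. Of 62 tested genes 5 rose, where 1.16% of all genes rose, and 3 fell, where 1.2% of all genes fell. With quantile normalization 7 rose and 2 fell. The raised genes were Cyp4p2, Cyp9h1, Cyp6a14, Cyp12c1 and Cyp6a13, and the lowered genes were Cyp6a17, Cyp6a20 and Cyp9f3. The median of all genes differed by a log2 value of -0.07 and was not subtracted.

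Cyp4p2 went from 0.193 and 0.369 FPKM in w1118, which rested on 6 and 12 fragments, to 44.1 and 38.3 FPKM in Shal495. The log2 change was 5.04 ± 0.146 (adjusted p = 0.000923). Its neighbours in the same tandem group did not pass: Cyp4p1 stood at 24.0 and 23.9 FPKM against 58.0 and 37.4 (adjusted p = 0.110), and Cyp4p3 at 4.00 and 8.36 FPKM against 3.37 and 3.05. Without w1118 replicate 2 the fall of Cyp4p1 passed (adjusted p = 0.0462). In the TrpA1 table Cyp4p2 stood at 9.38 to 11.3 FPKM in all 4 libraries, and in the APP table at 1.25 FPKM or less.

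Cyp6a17 went from 43.5 and 43.5 FPKM in w1118 to 0.287 and 2.69 in Shal495, the latter from 9 and 85 fragments, a log2 change of -4.35 ± 0.500 (adjusted p = 0.0327). Cyp6a20 went from 98.7 and 119 FPKM to 13.1 and 14.2, a log2 change of -2.91 ± 0.122 (adjusted p = 0.00221). Both genes lie in the largest tandem group, 9 genes within 14871366 to 14903095 of chromosome 2R on the BDGP6 build. The group did not move as one: Cyp6a23, next to Cyp6a17, stood at 20.3 and 35.2 FPKM against 6.37 and 7.35 and narrowly missed the threshold (adjusted p = 0.0504), and Cyp6a21, next to Cyp6a20, stood at 13.6 and 32.9 FPKM against 9.20 and 8.41 (adjusted p = 0.215). Cyp6a19 was at 0.0576 and 0.171 FPKM against 0.838 and 1.54 and was not tested. Cyp6a9, Cyp6a8, Cyp6a22 and Cyp317a1 differed by log2 values of -0.40 to 0.40 and did not pass. The members of this group are close in sequence, so counts may be split between them.

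**Figure D4:**
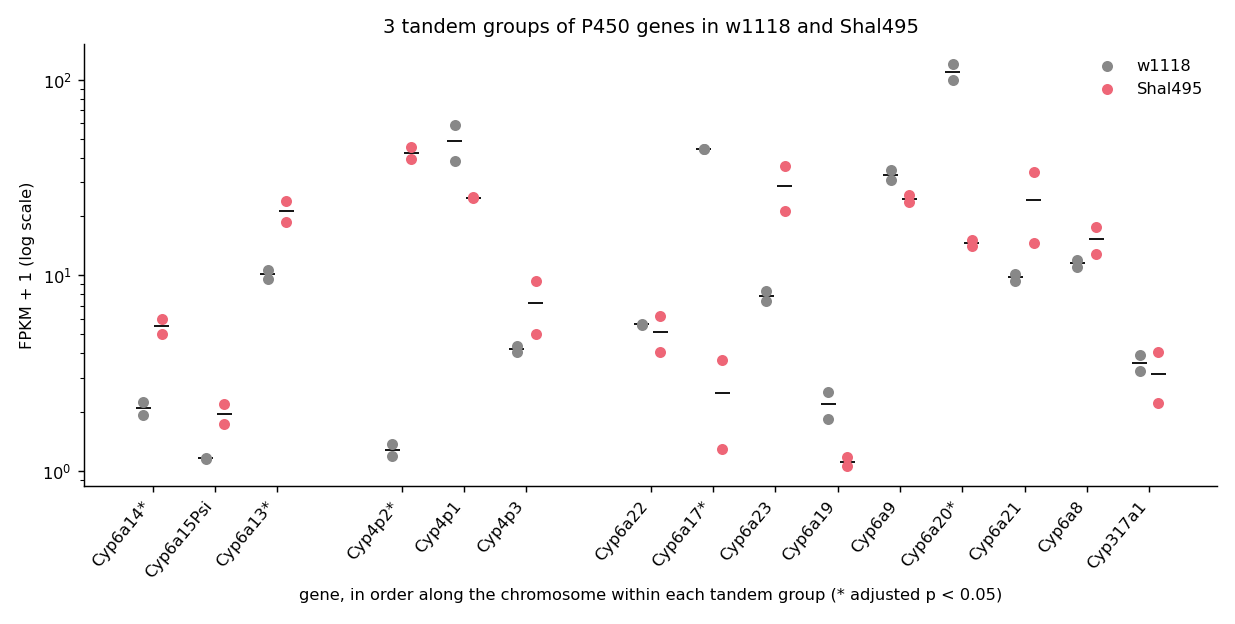
FPKM + 1 (log axis) of the genes of 3 tandem groups in gene order, in w1118 (grey) and Shal495 (red); points are libraries, bars are means of 2, and asterisks mark adjusted p under 0.05. Cyp4p2, Cyp6a17 and Cyp6a20 stand far apart between genotypes while their neighbours overlap or differ less.

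Of the other raised genes, Cyp9h1 stood at 22.05 and 18.8 FPKM against 7.68 and 6.45, Cyp12c1 at 10.9 and 13.9 against 4.62 and 4.09, Cyp6a14 at 4.02 and 4.99 against 1.26 and 0.923, and Cyp6a13, its tandem neighbour, at 17.8 and 23.0 against 9.65 and 8.62. Cyp9f3 stood at 7.73 and 7.86 FPKM against 13.7 and 14.3. None of these pairs of groups overlapped, and the log2 changes were -0.77 to 1.41. They passed by little: each lost its call without any 1 of the 4 libraries (adjusted p from 0.0768 to 0.235). Only Cyp4p2 passed in every such fit (adjusted p from 0.00543 to 0.0332). Cyp6a20 lost its call without Shal495 replicate 2 (adjusted p = 0.0569), and Cyp6a17 lost its call without w1118 replicate 1 (adjusted p = 0.129) and without w1118 replicate 2 (adjusted p = 0.0908). Of the 8 called genes 6 lie on chromosome 2R, which holds 27 of the 62 tested, 1 on 3L and 1 on 3R. On 2R, Cyp6a13 and Cyp6a14 share a tandem group, as do Cyp6a17 and Cyp6a20. Calls over all genes were not counted by arm, so these counts carry no reading by arm.

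Several abundant genes that separated the APP groups did not pass here, unlike Cyp6a17 and Cyp6a20. Cyp6d5 measured 176 and 171 FPKM in Shal495 against 218 and 182, Cyp9f2 135 and 172 against 150 and 156, Cyp12a4 44.3 and 48.1 against 51.2 and 39.1, and Cyp6a2 167 and 181 against 212 and 148, and these groups overlapped for Cyp9f2, Cyp12a4 and Cyp6a2. Cyp4g15 measured 83.3 and 82.7 FPKM against 72.6 and 72.3 (adjusted p = 0.260) and Cyp6g1 164 and 193 against 136 and 118 (adjusted p = 0.132), without overlap. Cyp4g1 measured 1.43 and 0.624 FPKM against 3.42 and 4.75 (adjusted p = 0.0917). None of 14 partner genes passed with limma, none had an unadjusted p under 0.05, and limma with voom weights on recovered fragments called none. GstE14 rose from 24.6 and 25.96 FPKM to 40.5 and 38.1 (adjusted p = 0.0468), a call that was lost with voom. Fat body genes summed to 716 to 832 FPKM in Shal495 against 538 to 545, gut genes to 1121 to 1526 against 1289 to 1834, and neuronal genes to 644 to 667 against 688 to 696. Yp1, Yp2 and Yp3 were higher in Shal495, Yp1 at 38.2 and 37.2 FPKM against 0.426 and 0.305. The male RNA roX2 was lower there, at 24.4 and 19.6 FPKM against 50.9 and 44.3 (adjusted p = 0.0396). The male RNA roX1 did not pass (log2 change -0.097, adjusted p = 0.639). The part of the tissue genes and sex markers in the P450 values was not tested. Sex markers, tissue content and genotype cannot be told apart in this table.

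The authors' deposited table of gene ontology terms for Shal495 lists 16 changed genes under monooxygenase activity, with a p-value of 2.06e-06. Of these 13 are numbered P450 genes, 8 marked up and 5 marked down. The authors' deposited table marks Cyp305a1, Cyp6a21 and Cyp6a23 up and Cyp4g1 and Cyp4s3 down, which did not pass here, and Cyp6a19 down, which was not tested here. The other 7 also passed here in the same direction, and Cyp9f3 passed here without being marked there.

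In the TrpA1 table P450 genes moved in both directions by modest amounts. Of 60 tested genes 19 rose, where 16.6% of all genes rose, and 19 fell, where 43.9% of all genes fell. The median gene differed by a log2 value of -0.16, which was subtracted, and the median P450 change was then 0.18. Median centring gave 34 raised and 15 lowered, and quantile normalization 29 and 15. All 19 raised and 15 of the 19 lowered calls held under both scalings.

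**Figure D5:**
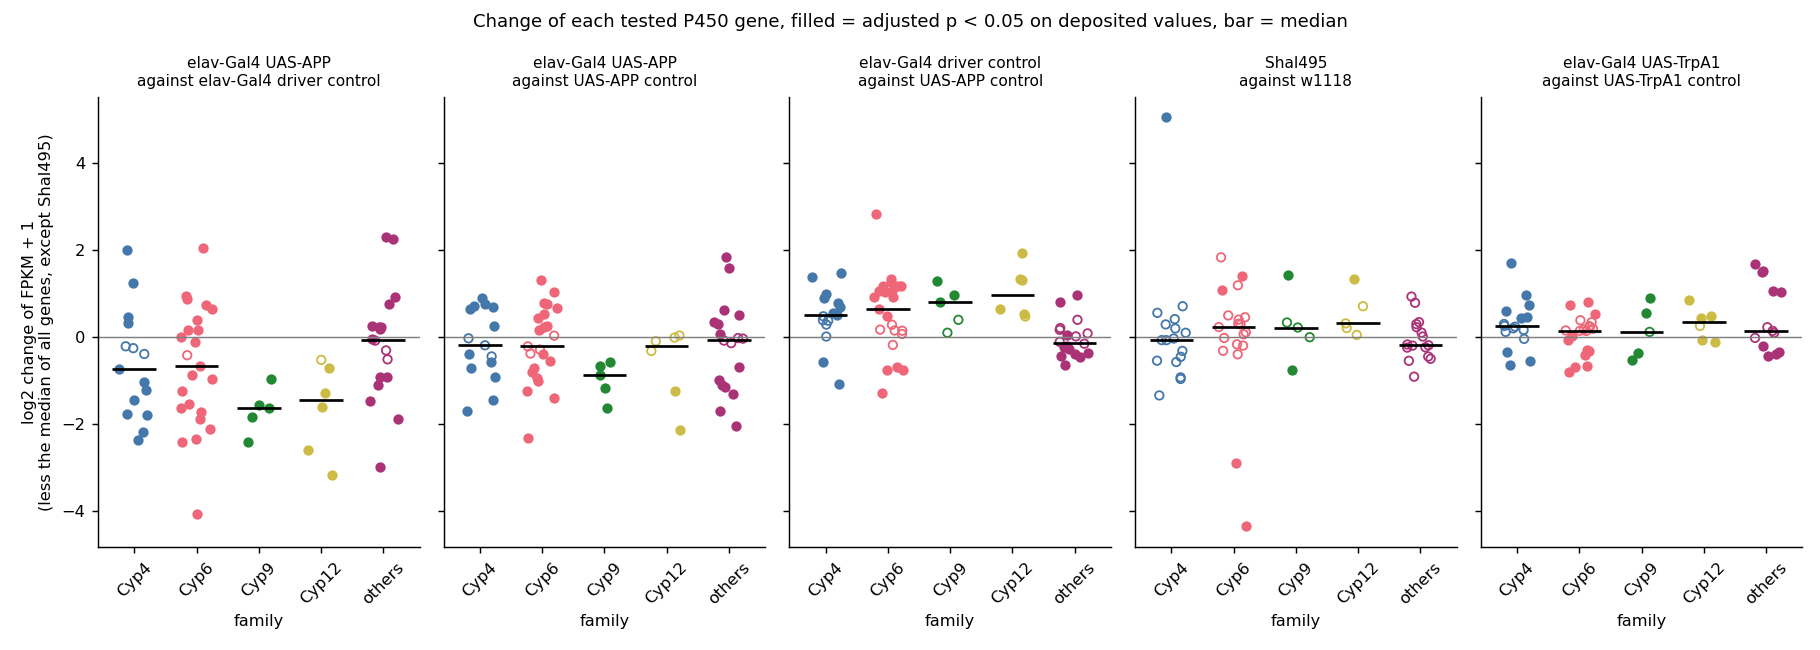
Log2 change of FPKM + 1 (y axis) of each tested P450 gene in each of 5 comparisons, by family (x axis), less the median of all genes except in Shal495; filled points passed adjusted p under 0.05 on deposited values, and bars are medians. Every Cyp9 point lies below 0 in the 2 comparisons of elav-Gal4 UAS-APP, while Shal495 has few filled points and 3 beyond a log2 value of 2 in size.

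The largest rises were in genes outside the Cyp6 and Cyp9 families. Cyp4d1 stood at 12.1 and 14.02 FPKM in elav-Gal4 UAS-TrpA1 against 4.31 and 3.43 in the UAS-TrpA1 control, a log2 change of 1.70 ± 0.111 (adjusted p = 6.13e-05). The tandem neighbours Cyp309a1 and Cyp309a2 rose together, from 32.8 and 34.9 to 85.8 and 89.5 FPKM and from 12.1 and 13.3 to 37.7 and 38.1 FPKM. Cyp28d1 rose from 220 (219.7) and 219 to 404 and 411 FPKM (log2 change 1.05 ± 0.030, adjusted p = 2.87e-06), and Cyp313a1 from 235 and 227 to 423 and 421 FPKM. Both belong to the families outside Cyp4, Cyp6, Cyp9 and Cyp12, whose sum was 1116 ± 3.72 FPKM (SD, n = 2) against 697 ± 6.21 in the control. Cyp4s3 rose from 10.3 and 10.1 to 18.9 and 17.9 FPKM, and 20.1% of its exons are covered by Rab3-GEF on the other strand.

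Of 20 tested Cyp6 genes 3 rose (15%) and 8 fell (40%), close to the 16.6% and 43.9% of all genes. Under both scalings 6 of these 8 falls and all 3 rises held. Cyp6d5 fell from 415 and 408 to 204 and 213 (212.5) FPKM, a log2 change of -0.82 ± 0.034 (adjusted p = 3e-06). Cyp6g1 fell from 413 and 417 to 292 and 295 FPKM, and Cyp6a17 from 39.3 and 40.4 to 21.9 and 21.5 FPKM. Cyp6a21 fell as well, from 15.1 and 15.4 to 8.96 and 7.45 FPKM. The family sum was 878 ± 6.14 FPKM against 1213 ± 4.63 in the control. Cyp6w1 rose, from 30.1 and 31.7 to 48.9 and 48.5 FPKM, and its change was positive under both scalings. Cyp9f2 fell from 261 and 259 to 162 and 161 FPKM, while Cyp9b2 and Cyp9h1 rose, the latter from 25.8 and 24.4 to 43.2 and 41.9 FPKM. Cyp12a4 rose from 110 (110.3) and 112 to 137 and 141 FPKM, Cyp12d1-p from 1.51 and 1.43 to 2.91 and 3.05 FPKM, and Cyp4ac3 fell from 9.36 and 9.10 to 5.21 and 5.27 FPKM.

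Cyp28a5, Cyp305a1 and Cyp28c1 were lower with driver and transgene, Cyp28a5 at 84.5 and 84.0 FPKM against 105 and 115.4, Cyp305a1 at 18.8 and 20.6 against 29.1 and 29.5, and Cyp28c1 at 3.15 and 3.59 against 5.49 and 5.67. Cyp4g15, Cyp6a20, Cyp6a2, Cyp18a1, Cyp4e2 and Cyp4p1 differed by ratios of 0.984 to 1.05 and did not pass, though all 6 passed as raised with median centring. Cyp6a8 stood at 6.48 and 6.65 FPKM against 5.89 and 5.13 and passed with either scaling and with the filter at 5 FPKM. In 5 of 11 tandem groups with at least 2 tested members, calls went in both directions; the pairs were Cyp4ac1 and Cyp4ac3, Cyp9b2 and Cyp9b1, Cyp6t3 and Cyp6g1, Cyp6a22 and 4 of its neighbours, and Cyp12a4 and Cyp12a5. The falls of Cyp12a5 and of Cyp6a23, 1 of those 4 neighbours, were lost with either scaling.

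Of 13 tested partner genes 2 rose and 7 fell, beside 16.6% and 43.9% of all genes. Hr96 rose from 6.35 and 7.37 to 8.16 and 8.35 FPKM, and maf-S from 128 and 126 to 168 and 171 FPKM. Fdx2 fell from 70.6 and 77.7 to 51.1 and 56.8 FPKM, and Cpr, at 77.5 and 77.7 FPKM against 73.6 and 73.7, did not pass as deposited and passed as raised with either scaling. With median centring 6 rose and 3 fell, and with quantile normalization 5 and 3. Of 2 tested ecdysteroid genes both fell, GstE14 from 69.8 and 68.1 to 53.5 and 53.2 FPKM and phtm from 2.75 and 3.19 to 1.56 and 1.18 FPKM. Fat body genes summed to 2329 to 2355 FPKM in elav-Gal4 UAS-TrpA1 against 1026 to 1032, gut genes to 6966 to 7227 against 8791 to 8951, and neuronal genes to 200 (199.9) to 204 against 255 to 256. Of 14 gut genes 4 rose and 8 fell, and of 7 neuronal genes 0 rose and 5 fell, beside 16.6% and 43.9% of all genes. Gad1 carried much of the neuronal difference, at 36.8 and 38.0 FPKM against 80.8 and 82.2, while elav and nSyb did not pass. Oenocyte genes summed to 3.81 to 4.86 FPKM against 1.36 to 1.40, photoreceptor genes to 29357 to 29912 against 18845 to 18948, and glial genes to 902 to 904 against 1225 to 1236. FarO, the only oenocyte gene tested, carried that sum, at 4.18 and 3.09 FPKM against 0.797 and 0.687. FASN3 was lower, at 0.0633 and 0.0772 FPKM against 0.221 and 0.238. Of 6 photoreceptor genes 4 rose and 2 fell, beside the same shares of all genes. Yp1, Yp2 and Yp3 were lower with driver and transgene, Yp1 at 0.065 and 0.064 FPKM against 63.7 and 63.2. The male RNAs roX1 and roX2 were higher there, roX2 at 96.3 and 91.2 FPKM against 21.4 and 21.2. The part of all these genes in the P450 values was not tested. Sex markers, tissue content and genotype cannot be told apart in this table. The driver cannot be told apart from its combination with the transgene without a driver-only group.

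The authors' deposited table of gene ontology terms for TrpA1 lists 17 genes under monooxygenase activity, with a p-value of 0.000179. Of these 11 are numbered P450 genes, 9 marked up and 2 marked down. The authors' deposited table marks Cyp4g1 up and Cyp6a16 down, which were not tested here, and the other 9, among them Cyp309a1, Cyp4d1, Cyp28d1 and Cyp4c3, passed here in the same direction. Conversely, it marks under this term only 8 of the 19 P450 genes raised here and 1 of the 19 lowered here. Cyp6d5 and Cyp9f2 are among those called here and not marked there. The 2 sets of calls need not share a threshold.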

How the data were processed

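The authors deposited FPKM per gene and library in 3 tables, and enrichment tables whose other values are numbers of changed genes per term with a p-value and false discovery rate from the authors. Per the submitters' processing notes, BDGP6, Bowtie2 2.2.3, HISAT2 2.1.0 and TopHat2 were used. Their roles, and the tool that computed FPKM, are not given in the sources used here. Per the labels' protocols, oligo-dT RNA was made into NEBNext Ultra libraries and sequenced as paired ends.

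Members were found by FlyBase identifier. Cyp6a21 is listed under an older identifier and was matched by coordinates. Genes with 1 FPKM or more in at least 2 libraries were tested with limma 3.58.1 (R 4.3.3, trend) on log2(FPKM + 1), within a table, with Benjamini-Hochberg adjustment over all genes and a threshold of 0.05. The pseudocount understates changes of weak genes. The 6 APP libraries shared 1 fit. SE is the moderated standard error. Tandem groups are P450 genes within 10 kb. FPKM times exon length gave whole fragments, within 0.02, for 98.7% to 98.9% of genes per library. These fragments gave library totals and a voom alternative, for genes with at least 10 fragments. Further alternatives changed the pseudocount to 0.1, dropped the filter or raised it to 5 FPKM, rescaled by median centring or by quantile normalization, added the replicate block, fitted only 2 groups, or left out 1 library. On simulated data all genes changed by a log2 value of 1 or 2 were recovered (100%), and smaller changes were not simulated. The changed genes, 100 of each size, had a mean of 5 FPKM or more, so recovery of weaker genes is not shown. A shift of the median gene, as in the APP table, was not simulated either. There were 7, 16 and 16 false calls of 9411, 9415 and 8772 genes for the comparisons between the APP controls, of Shal495 and of TrpA1 respectively. The simulation gave all groups the same spread between replicates. It therefore cannot show recovery or false calls at the wider spread of the UAS-APP control, w1118 and Shal495. In the Shal495 data themselves, the log2 change of Cyp6a23 was 1.825 and did not pass with limma (adjusted p = 0.0504).

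Named genes were the 6 largest rises and 6 largest falls per comparison with a mean of 5 FPKM or more and no overlap between libraries, 21 fixed genes, the 10 most abundant genes and their tandem neighbours. Where another gene is named, it was chosen after its values were seen. Members, lists and alternatives were chosen with earlier results of these data known. Python 3.11.15, pandas 2.3.3, numpy 2.4.6 and matplotlib 3.10.9 were used. Sequences were not used here.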

Additional observations from a re-analysis of the deposited data

How the results depend on the processing

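Counts of raised and lowered P450 genes kept within 1.5 times of the reported count under most alternatives. With median centring the count raised in elav-Gal4 UAS-APP against the driver control was 13, and that in elav-Gal4 UAS-TrpA1 was 34, or 29 with quantile normalization. In Shal495, 1 gene was raised and 1 lowered without the filter on low values. The cause of these shifts was not tested. Leaving out each library gave, raised and lowered, 23 to 25 and 33 to 37 for elav-Gal4 UAS-APP against the driver control, 21 to 27 and 25 to 33 against the UAS-APP control, 22 to 31 and 12 to 19 between these controls, 1 to 2 and 1 to 2 for Shal495, and 17 to 19 and 15 to 17 for TrpA1.

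Replicate numbers did not pair the libraries: same-numbered deviations correlated at -0.033 to 0.018. With the replicate block, Shal495 had 2 genes raised and 2 lowered. The block gave 23 and 36, 23 and 29, 29 and 16, and 19 and 19 in the other comparisons.

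Log2 changes near the median gene turned in sign. In elav-Gal4 UAS-APP against the driver control, Cyp6w1 was at 0.25 with no filter, 0.046 with the filter at 5 FPKM, 0.42 with quantile normalization, and 0.012 and 0.032 without driver control replicate 2 and elav-Gal4 UAS-APP replicate 2. Cyp305a1 was at 0.20 with no filter and 0.20 with quantile normalization, which also put Cyp4e2 at 0.35 and Cyp313a1 at 0.74. Against the UAS-APP control Cyp305a1 ran from -0.0998 to 0.047 without each UAS-APP library. Between the controls it was at -0.12 with no filter and -0.0899 with quantile normalization, and ran from -0.0425 to 0.11 without each UAS-APP library. Depth limits genes under 1 FPKM, and the wide spread of the UAS-APP control, w1118 and Shal495 replicates limits the rest. Errors in the shared APP fit may be too small for the UAS-APP control.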
